A study of Homo sapiens with 6 samples.

Results

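The genes described here encode collagen chains, matrix proteins and proteoglycans, a collagen receptor and a secreted matrix kinase. They are COL15A1, COL4A6, COL9A3, DCN, LUM, MAMDC2, TGFBI, TINAGL1, MRC2 and PKDCC, 10 genes of the 426 that the authors' deposited table lists as changed, and were chosen by gene name. The data are RNA-seq expression values from MKN28, a human gastric cancer cell line. The 2 groups were cells with a control vector and cells with a short hairpin RNA against VPS35 (shVPS35), the core subunit of the endosomal sorting complex retromer, with 3 samples in each. The design text calls the samples biological replicates. The sources used here do not say whether the samples came from separate cultures or whether 1 hairpin or clone served all shVPS35 samples. P-values therefore set group differences against the spread between these samples and do not extend to other cultures, hairpins or clones. VPS35 itself had 20.6% of its vector level left with shVPS35. Values summed to between 4696 and 5130 per sample over the listed genes, and read depth is unknown. None of the 5 epithelial markers checked (EPCAM, CDH1, KRT8, KRT18 and KRT19) is on the list, so the labelled cell type could not be read from these values.

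The extracellular matrix outside cells is built of collagen networks, adhesive glycoproteins and proteoglycans. Epithelial cells rest on a basement membrane, a sheet woven from collagen IV and laminin, and fibroblasts make most of the fibrillar collagen and small leucine-rich proteoglycans beneath it. Matrix is turned over by secreted proteases and by receptors that carry collagen fragments to endosomes and lysosomes, and retromer sorts membrane proteins at endosomes.

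In shVPS35 cells the matrix genes moved in both directions. TGFBI, an adhesive matrix protein, fell to 11.5% of its vector level. The collagen chain gene COL4A6 and the glycoprotein gene TINAGL1, both of basement membranes, fell to 18.1% and 49.9%. MAMDC2, a secreted proteoglycan, rose 5.82-fold as a ratio of group means. The collagen receptor gene MRC2 rose 3.42-fold. The collagen chain genes COL15A1, also of basement membranes, and COL9A3 rose 3.28-fold and 2.22-fold. The kinase gene PKDCC rose 3.18-fold and the proteoglycan gene DCN 2.83-fold. LUM, a close relative of DCN, had a lower mean in shVPS35 cells, and its groups overlapped.

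A limma test on the log2(value + 1) scale with Benjamini-Hochberg adjustment was fitted to the listed genes that reached 1 in at least 3 samples. Of the 10 genes, 9 met this filter and 9 passed at an adjusted p of 0.05, of which 6 rose and 3 fell. The same test called 100% of the 292 listed genes it covered (45.2% rose and 54.8% fell), since the list holds only genes the authors had already called on these samples. The counts and p-values are therefore a description of difference against spread and no independent evidence. LUM alone missed the filter, with 2 values of 1 or more. In 9 of the 10 genes the groups did not overlap, against 93.4% of all listed genes. The p-values and their adjustment in the authors' deposited table show that 16063 genes were tested, of which 2.65% are listed (1.18% rose and 1.47% fell).

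**Figure D1:**
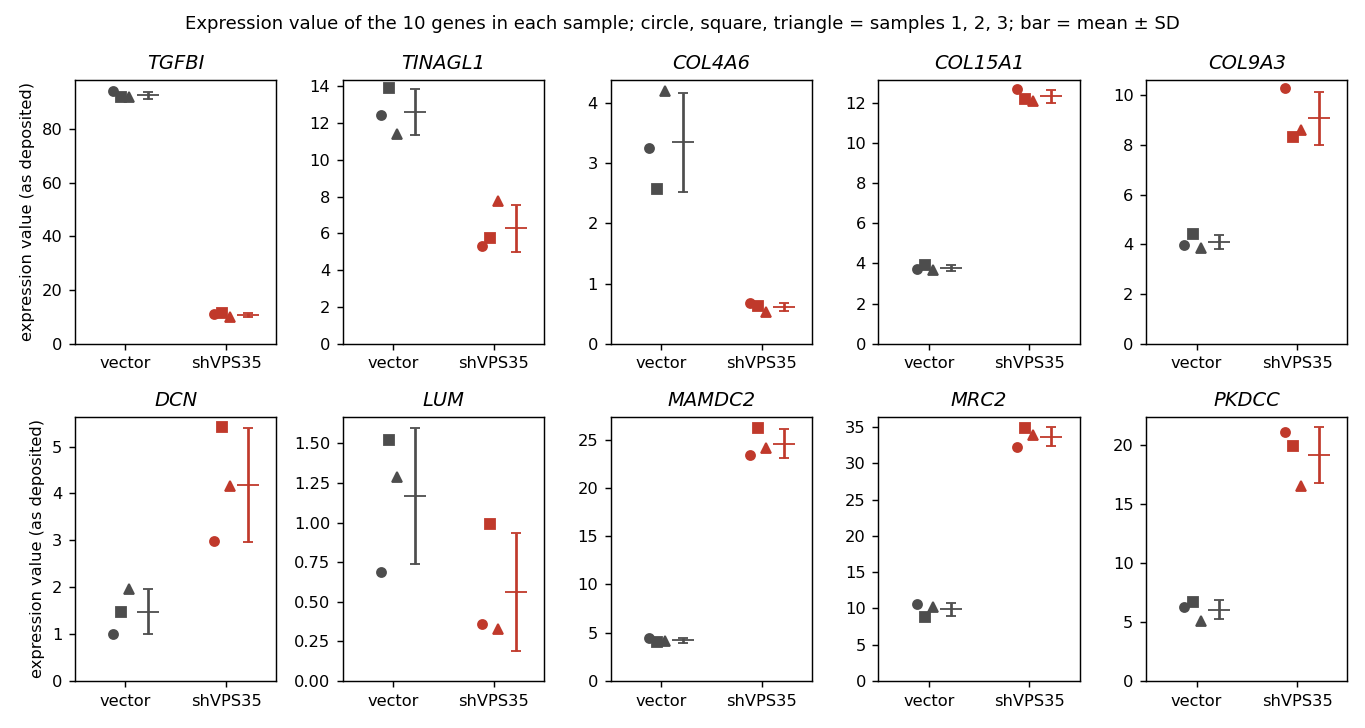
Expression value, as deposited, of each gene in the 3 vector (grey) and 3 shVPS35 (red) samples, with the mean and SD beside the points and a separate axis from 0 for each gene. TGFBI drops from about 92.7 to 10.7 and MAMDC2 climbs from about 4.22 to 24.6 with little spread, while the LUM samples of the groups interleave.

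TGFBI (ENSG00000120708; GRCh38, chromosome 5, 136028895 to 136063818, plus strand) encodes a secreted protein that binds collagens and integrins and is induced by TGF-beta. Per sample it read 94.2, 92.0 and 91.9 with the vector and 11.0, 11.3 and 9.78 with shVPS35. All 3 shVPS35 samples lay far below every vector sample, and the samples of each group were close to one another. The mean went from 92.7 ± 1.33 to 10.7 ± 0.801 (SD, n = 3 each), and limma put the log2(value + 1) difference at -3.01 ± 0.06 (SE) with adjusted p = 7.4e-09. In the authors' deposited table its log2 fold change was -3.14, the 23rd largest in size of the 236 genes that fell, and its p was 0 to the precision given.

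COL4A6 (ENSG00000197565; chromosome X, 108155607 to 108439497, minus strand) encodes a chain of collagen IV, the network-forming collagen of basement membranes. It read 3.26, 2.58 and 4.21 with the vector and 0.670, 0.620 and 0.530 with shVPS35. The vector samples were spread widely, and even the lowest of them stood well above the shVPS35 samples, which were all below 1. The mean fell from 3.35 ± 0.819 to 0.607 ± 0.0709 (SD, n = 3 each), and limma put the log2(value + 1) difference at -1.42 ± 0.15 (SE) with adjusted p = 2.7e-05. At these low values the difference depends on the pseudocount, and it was -2.27 with 0.1 and -0.57 with 5, past the threshold each time. COL4A6 met the filter through its vector samples alone, so passing the threshold is no support for the fall. The authors' deposited table gives it a log2 fold change of -2.54.

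COL4A6 lies head to head with COL4A5, which encodes another collagen IV chain, and GENCODE 29 places the 5′ ends of the genes 347 bases apart on opposite strands. COL4A5 is not on the list, and its level is not analysed here. The stretch upstream of COL4A6 within this interval is shown because both genes are transcribed away from it. It is taken from the RefSeq promoter table (GRCh38.p14, chrX:108439498-108439708, minus strand), ends at the GENCODE start of COL4A6, and has the CCAAT box in capitals (CCAAT, or ATTGG on the other strand).
COL4A6: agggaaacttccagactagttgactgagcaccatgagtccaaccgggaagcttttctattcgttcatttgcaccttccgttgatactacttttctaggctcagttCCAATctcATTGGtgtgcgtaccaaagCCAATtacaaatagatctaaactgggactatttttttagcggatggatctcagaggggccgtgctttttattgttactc
The 211 bases are 43.1% G and C and hold 3 CCAAT matches. Among all 35116 promoter stretches of 250 bases in the table, 32% hold at least 1 match and 2.93% at least 3. A second RefSeq start of COL4A6 has no CCAAT match in its 250 bases, and the second start of TINAGL1 has 1. This motif was added after the other 6 had been searched, and a match shows only that the letters are there.

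TINAGL1 (ENSG00000142910; chromosome 1, 31576485 to 31587686, plus strand) encodes a glycoprotein of basement membranes related to tubulointerstitial nephritis antigen. The vector samples had 12.4, 13.9 and 11.4 and the shVPS35 samples 5.33, 5.77 and 7.74. Sample 3 of the shVPS35 group was the highest of its group and still below the lowest vector sample. The mean fell from 12.6 ± 1.25 to 6.28 ± 1.28 (SD, n = 3 each), and limma put the log2(value + 1) difference at -0.91 ± 0.14 (SE) with adjusted p = 0.00026. The authors' deposited table gives a log2 fold change of -1.11, which was close to the authors' limit of 1 in size and ranked 202nd of the 236 that fell.

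COL15A1 (ENSG00000204291; chromosome 9, 98943179 to 99070792, plus strand) encodes collagen XV, a chain with interrupted triple helices that sits at the border of basement membrane and underlying matrix. Its values were 3.73, 3.92 and 3.65 in vector cells and 12.7, 12.2 and 12.1 in shVPS35 cells. The coefficient of variation was 3.68% in the vector group and 2.66% in the shVPS35 group, against medians of 9.59% and 11.8% over the 10 genes. The mean rose from 3.77 ± 0.139 to 12.3 ± 0.329 (SD, n = 3 each). By limma this was a log2(value + 1) difference of 1.49 ± 0.09 (SE) at adjusted p = 9.4e-07, and of 0.98 with a pseudocount of 5.

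COL9A3 (ENSG00000092758; chromosome 20, 62816244 to 62841159, plus strand) encodes a chain of collagen IX, which decorates the surface of collagen fibrils in cartilage. It had 3.98, 4.42 and 3.86 with the vector and 10.3, 8.31 and 8.60 with shVPS35. Every shVPS35 value was above every vector value, with sample 1 the highest of its group. The mean rose from 4.09 ± 0.295 to 9.07 ± 1.08 (SD, n = 3 each). By limma this was a log2(value + 1) difference of 0.98 ± 0.11 (SE) at adjusted p = 4.9e-05, and of 0.63 with a pseudocount of 5. COL15A1, COL9A3 and COL4A6 were the listed genes among 44 collagen chain genes, or 6.82% against 2.65% of all genes tested, and 41 were not listed, the fibrillar COL1A1, COL1A2 and COL3A1 among them. The listed chains were themselves chosen from the authors' list, so this share is no measure of enrichment.

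DCN encodes decorin and LUM encodes lumican, small leucine-rich proteoglycans that bind collagen fibrils and shape their assembly. DCN (ENSG00000011465; chromosome 12, 91140484 to 91183123) and LUM (ENSG00000139329; chromosome 12, 91102629 to 91111831) lie on the minus strand 28653 bases apart, and GENCODE 29 places no gene wholly between them. DCN had 1.00, 1.47 and 1.97 with the vector and 2.98, 5.41 and 4.17 with shVPS35. The groups did not overlap, although each was widely spread. The mean rose from 1.48 ± 0.485 to 4.19 ± 1.22 (SD, n = 3 each). By limma this was a log2(value + 1) difference of 1.06 ± 0.21 (SE) at adjusted p = 0.00137, and it was 1.45 with a pseudocount of 0.1 and 0.50 with 5.

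LUM had 0.690, 1.52 and 1.29 with the vector and 0.360, 0.990 and 0.330 with shVPS35. Sample 2 of the shVPS35 group was higher than sample 1 of the vector group, so the groups overlapped. The means were 1.17 ± 0.429 and 0.560 ± 0.373 (SD, n = 3 each), a log2(value + 1) difference of -0.48 for which the filter allowed no test. With every listed gene tested, the limma adjusted p of LUM was 0.0562. Leaving out vector sample 1 or shVPS35 sample 2 ended the overlap, with differences of -0.65 and -0.67. Its adjusted p in the authors' deposited table was 0.0455, close to the limit of 0.05, with a log2 fold change of -1.13.

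The ratio of DCN to LUM was also taken within each sample. It was 1.45, 0.967 and 1.53 with the vector and 8.28, 5.46 and 12.6 with shVPS35. The size of this ratio depends on the unit of the values, which the header does not name, while its order between samples does not. All 3 shVPS35 samples stood above all 3 vector samples. The log2 ratio of value + 1 was 0.20 ± 0.21 with the vector and 1.73 ± 0.21 with shVPS35 (SD, n = 3 each), a difference of 1.54 (exact permutation test, 2-sided p = 0.1, the smallest that 3 against 3 samples can give). That difference depends on the pseudocount, and it was 2.46 with 0.1 and 0.65 with 5. DCN and LUM are listed in opposite directions, so the direction of this difference follows from their choice. That choice also favours groups that stand apart, so the permutation p is a description and no independent evidence. Their levels were low, and sample 2 had the highest value of both genes in the shVPS35 group while sample 1 had the lowest of both in the vector group.

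**Figure D2:**
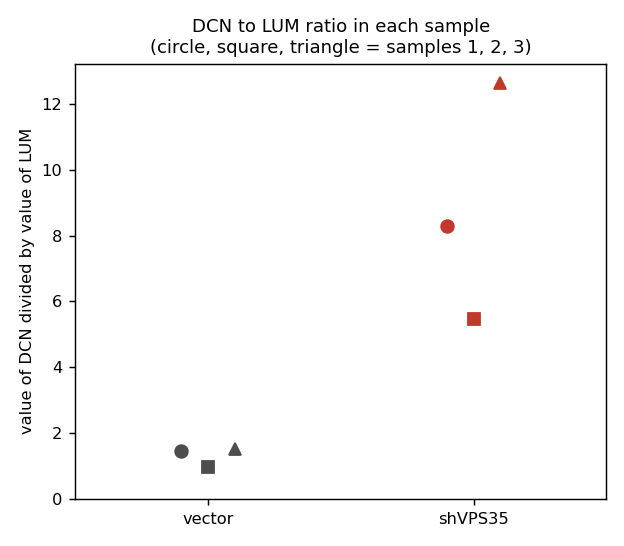
Expression value of DCN divided by that of LUM (vertical axis, ratio from 0) in each vector (grey) and shVPS35 (red) sample, with 1 point per sample. The vector samples lie between 0.967 and 1.53 and the shVPS35 samples between 5.46 and 12.6.

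DCN and LUM are also the listed members of a list of 10 fibroblast markers, 1 higher and 1 lower (20%, against 2.65% of all genes tested). Both were chosen from the authors' list, so the share is no measure of enrichment. The other 8, COL1A1, COL1A2, COL3A1, PDGFRA, PDGFRB, THY1, FAP and ACTA2, are not listed, so no summed fibroblast level can be given, and the part of other cells in the DCN difference was not tested. Of 4 endothelial markers CDH5, a cadherin of endothelial junctions, is listed (25%, against the same 2.65%, from a single gene). Its values were 0.830, 1.25 and 0.860 in vector and 0.420, 0.560 and 0.660 in shVPS35 cells. The sample titles name MKN28 cells alone, and whether other cells were present was not tested. In bulk RNA, fewer cells of a type and less RNA per cell cannot be told apart.

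MAMDC2 (ENSG00000165072; chromosome 9, 70043581 to 70226970, plus strand) encodes a secreted proteoglycan built of MAM domains. It had 4.49, 4.0 and 4.18 with the vector and 23.4, 26.3 and 24.2 with shVPS35. The lowest shVPS35 sample was far above the highest vector sample, and the coefficient of variation was 5.87% and 6.01%. The mean rose from 4.22 ± 0.248 to 24.6 ± 1.48 (SD, n = 3 each), and limma put the log2(value + 1) difference at 2.29 ± 0.08 (SE) with adjusted p = 8.7e-08. In the authors' deposited table its log2 fold change was 2.51, the 29th largest of the 190 genes that rose.

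The promoter of MAMDC2 is shown because this gene rose most of the 10 and because its RefSeq start matches the GENCODE start. The 250 bases before that start come from the RefSeq promoter table (GRCh38.p14, chr9:70043331-70043580, plus strand), and capitals mark GGAATG, the core of the TEAD motif, or CATTCC on the other strand.
MAMDC2: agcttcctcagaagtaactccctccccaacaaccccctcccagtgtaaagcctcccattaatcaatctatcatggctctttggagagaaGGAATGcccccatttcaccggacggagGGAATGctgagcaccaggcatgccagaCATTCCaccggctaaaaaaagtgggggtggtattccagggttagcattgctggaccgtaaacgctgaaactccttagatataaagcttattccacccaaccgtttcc
The 3 matches begin 161, 134 and 107 bases before the start. At least 1 match is present in 11.9% of the 35116 promoter stretches of this length, and 3 or more in 29 of them (0.0826%). Several motifs were searched in several stretches, so this share is no test, and a match shows only that the letters are there. A TATA match (TATAAA or TTTATA, present in 10.7%) begins 29 bases before the start. A second RefSeq start of MAMDC2 has no TEAD match in its 250 bases.

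The RefSeq table held promoters for 5 of the 10 genes, COL15A1, COL4A6, MAMDC2, TGFBI and TINAGL1, in 8 stretches. Among these, the other TEAD match was in 1 of the 2 stretches of TINAGL1, which fell. The GC box (GGGCGG or CCGCCC, in 42.6% of all stretches) had 3 matches before TGFBI, 4 before 1 start of TINAGL1, 2 before the second start of MAMDC2 and 1 each before COL15A1 and the second start of COL4A6. No stretch of these genes held the AP-1 motif TGANTCA (6.57% of all stretches), the SNAI E-box CAGGTG or CACCTG (17.5%) or the SMAD palindrome GTCTAGAC (0.182%). Genes that rose and genes that fell thus shared GC boxes.

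MRC2 (ENSG00000011028; chromosome 17, 62627401 to 62693597, plus strand) encodes an endocytic receptor of the mannose receptor family that takes up collagen for breakdown in lysosomes. It had 10.6, 8.84 and 10.2 with the vector and 32.2, 34.9 and 34.0 with shVPS35. Each shVPS35 sample was well above each vector sample. The mean rose from 9.86 ± 0.910 to 33.7 ± 1.37 (SD, n = 3 each), and limma put the log2(value + 1) difference at 1.68 ± 0.08 (SE) with adjusted p = 2.9e-07. An unstudied transcript on the opposite strand, AC080038.3, shares 676 bases with MRC2 exons, 9.85% of them, and is itself listed at means of 0.0700 and 0.393. The sources used here do not say whether the libraries keep strand, so reads of the overlap cannot be assigned between these genes. A second opposite-strand gene, AC080038.1, shares 2.77% of the MRC2 exon bases. The antisense genes MAMDC2-AS1 and SMC5-AS1 likewise share 7.89% and 3.87% of the exon bases of MAMDC2, and AL136084.3 shares 2.06% of those of COL15A1. LINC01226 on the same strand shares 2.99% of the TINAGL1 exon bases and TCFL5 on the opposite strand 0.930% of those of COL9A3.

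Of 14 collagen receptors and mannose receptor family genes, MRC2 and ITGA2 were listed (14.3%, against 2.65% of all genes tested). MRC2 was chosen from the authors' list, so the share is no measure of enrichment. ITGA2, the collagen-binding integrin subunit, had 8.03, 7.70 and 8.32 in vector and 2.70, 2.93 and 2.90 in shVPS35 cells and fell (log2 difference -1.23 ± 0.10, SE, n = 3 per group, limma adjusted p = 6.1e-06), with a difference of -0.73 at a pseudocount of 5. The listed collagen receptors thus moved in opposite directions.

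PKDCC (ENSG00000162878; chromosome 2, 42048020 to 42058528, plus strand) encodes a secreted tyrosine kinase that phosphorylates proteins of the secretory pathway and the matrix. Its values were 6.26, 6.70 and 5.11 in vector and 21.1, 19.9 and 16.5 in shVPS35 cells. Sample 3 was the lowest in each group, and the groups were far apart. The mean rose from 6.02 ± 0.821 to 19.2 ± 2.36 (SD, n = 3 each), and limma put the log2(value + 1) difference at 1.52 ± 0.12 (SE) with adjusted p = 6.4e-06. Of 4 secreted kinase genes it is the listed one (25%, against 2.65% of all genes tested), as follows from its choice from the list. FAM20A, FAM20B and FAM20C are not listed.

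**Figure D3:**
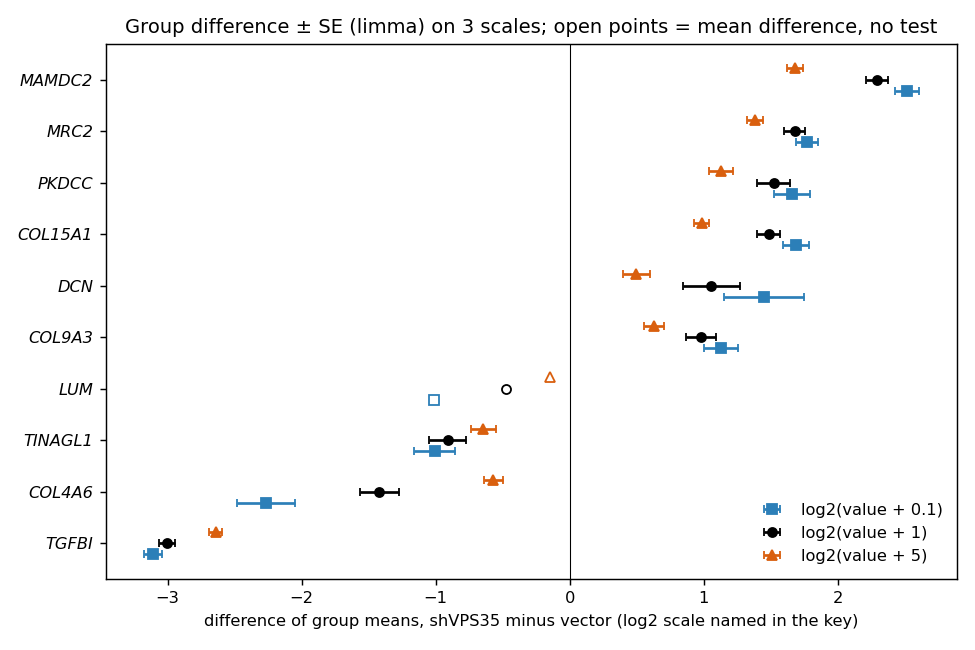
Difference of group means, shVPS35 minus vector, for each gene on the log2(value + 0.1), log2(value + 1) and log2(value + 5) scales, with the limma SE as bars and open points for LUM, which was not tested. Each gene keeps its side of 0 on all 3 scales, and the scale shifts COL4A6, DCN and LUM most relative to their size.

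By the authors' log2 fold changes the 10 genes lay across the range of the list. The median in the authors' deposited table was 1.71 for the 6 that rose against 1.5 for all 190 genes that rose, and -1.84 for the 4 that fell against -1.55 for all 236. MAMDC2 was the largest of the rising genes here, followed by MRC2 (63rd of 190), COL15A1 (75th), PKDCC (77th), DCN (106th) and COL9A3 (118th). Among those listed as lower, TGFBI was followed by COL4A6 (49th of 236), LUM (191st) and TINAGL1 (202nd).

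**Figure D4:**
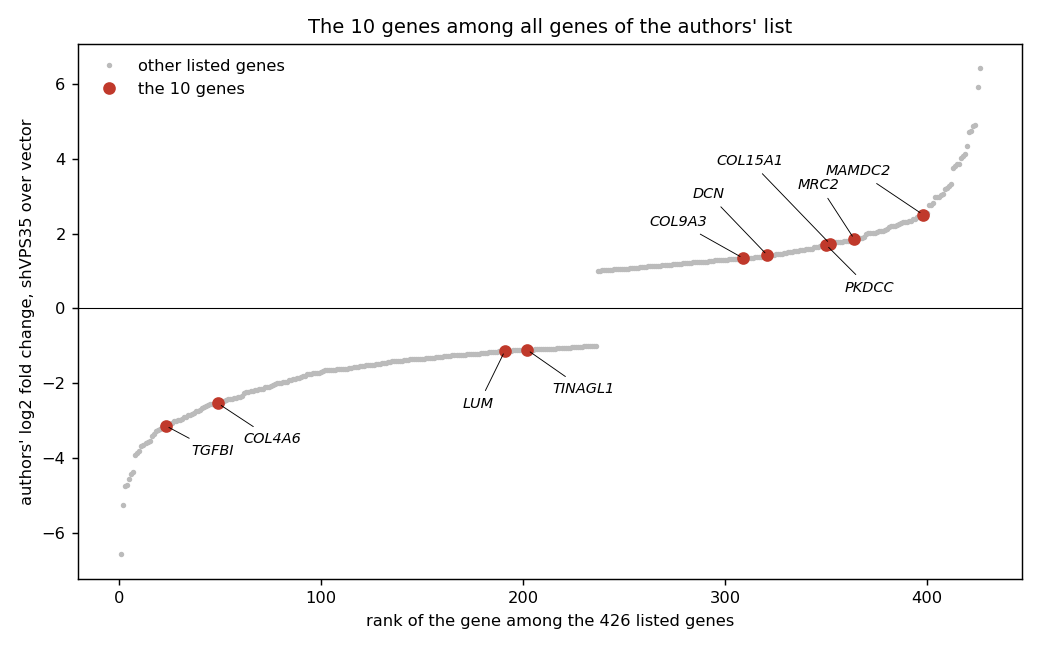
The log2 fold change of shVPS35 over vector in the authors' deposited table (vertical axis) for all 426 listed genes in rank order (horizontal axis), with the 10 matrix genes in red. They run from TGFBI at -3.14 to MAMDC2 at 2.51, with many listed genes beyond both ends.

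Other matrix genes were taken from lists compiled for this comparison. Of 33 basement membrane genes 4 were listed (12.1%, against 2.65% of all genes the authors tested), of which NTN4, COL4A6 and TINAGL1 fell and COL15A1 rose. All but NTN4 were chosen for this report from the authors' list, so the share is no measure of enrichment. NTN4, a laminin-related netrin of basement membranes, had 26.5, 24.8 and 24.1 in vector and 11.5, 13.5 and 12.1 in shVPS35 cells (log2 difference -0.97 ± 0.08, SE, n = 3 per group, limma adjusted p = 5.8e-06). No laminin or nidogen gene and no other collagen IV gene of that list is among the listed genes. Of 41 matricellular and adhesive glycoprotein genes, TGFBI and FBN1 were listed (4.88%, against the same 2.65%), and both fell. TGFBI was likewise chosen from the authors' list, which raises this share. FBN1, which encodes the microfibril protein fibrillin, went from 23.0 ± 2.06 to 10.8 ± 1.49 (SD, n = 3 each), and limma put the log2(value + 1) difference at -1.03 ± 0.11 (SE) with adjusted p = 3e-05.

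None of 30 genes of collagen processing and crosslinking was listed, against 2.65% of all genes tested. The 30 include the prolyl and lysyl hydroxylases and the lysyl oxidases. A gene off the list was either untested or short of a limit set by the authors, so this is no measure of its level. Of 26 matrix protease and inhibitor genes, 2 were listed (7.69%, against 2.65% of all genes tested). That share counts all 26, whether or not the authors tested them, and is no measure of enrichment. The elastase gene MMP12 rose, from 0.140, 0.150 and 0.220 to 1.59, 1.41 and 1.91 (log2 difference 1.17 ± 0.10, SE, n = 3 per group, limma adjusted p = 9e-06). Its vector values are near 0, and the difference was 2.69 with a pseudocount of 0.1 and 0.36 with 5. MMP12 met the filter through its shVPS35 samples alone, so its limma p is no support for the rise. The authors' deposited table gives it a log2 fold change of 3.28. PLAT, which encodes tissue plasminogen activator, fell in the limma test, although its groups overlapped. Its values were 1.84, 2.65 and 1.09 in vector and 0.660, 0.680 and 1.11 in shVPS35 cells (log2 difference -0.63 ± 0.20, SE, n = 3 per group, limma adjusted p = 0.016), and without shVPS35 sample 1 or sample 2 the limma adjusted p was 0.0572 and 0.0519. The PLAT difference was -1.05 with a pseudocount of 0.1 and -0.23 with 5.

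Because TGFBI is a TGF-beta target, 25 genes of TGF-beta signalling and its targets were read as well. Of these 3 were listed (12%, against 2.65% of all genes tested), with TGFBI lower and BAMBI and ID2 higher in shVPS35 cells. Since TGFBI was chosen from the authors' list, the share is no measure of enrichment. All 3 passed the limma test, as did 100% of the 292 listed genes it covered. ID2, an inhibitor of basic helix-loop-helix factors, had 3.43, 2.21 and 3.39 in vector and 12.6, 7.95 and 10.4 in shVPS35 cells. BAMBI, a pseudoreceptor that dampens TGF-beta and BMP signalling, had 7.80, 8.21 and 8.22 in vector and 19.4, 18.2 and 19.8 in shVPS35 cells. In each of these 3 genes the groups did not overlap, as in 93.4% of all listed genes. No TGF-beta ligand, TGF-beta receptor or SMAD gene of that list is among the listed genes.

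The listed genes closest to TGFBI over the 6 samples were F3, SPINK6 and DMBT1, at distances of 0.548, 0.583 and 0.590. The distance is Euclidean, on log2(value + 1) less the vector mean of each gene, and was sought among 151 listed genes whose mean reached 5 in either group. Those closest to MAMDC2 were CTTNBP2, AL355075.4 and SAMD11, at 0.699, 0.716 and 0.756. The match describes the size of the group difference on this scale above all, and the genes share the same 6 libraries. By the authors' log2 fold changes F3, SPINK6 and DMBT1 stood at -2.83, -3.35 and -4.74, against -3.14 for TGFBI. CTTNBP2, AL355075.4 and SAMD11 stood at 2.82, 1.86 and 2.01, against 2.51 for MAMDC2. The pseudocount narrows the difference of DMBT1, whose shVPS35 mean was 0.350, and of CTTNBP2, whose vector mean was 0.720.

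Position along the chromosome was compared as well. Another listed gene lay within 1 Mb of 7 of the 10 genes, counting DCN and LUM for each other and AC080038.3 for MRC2, against 46.3% of the 421 listed genes with a GENCODE 29 position. TINAGL1 had 3 such neighbours, SERINC2, SPOCD1 and LAPTM5, and all are listed as lower, SERINC2 from 34.6 ± 1.61 to 10.8 ± 0.0458 (SD, n = 3 each). The other neighbours had low values, SPOCD1 from 1.22 ± 0.251 to 0.347 ± 0.371 and LAPTM5 from 0.360 ± 0.0964 to 0.0533 ± 0.0473. TGFBI had SPOCK1, a testican proteoglycan gene of the matrix, 911480 bases away, at 0.423 ± 0.104 and 0.103 ± 0.0777. The neighbours of COL15A1 and COL9A3, TBC1D2 and NTSR1, were listed in the opposite direction to them, as DCN and LUM are to each other. TBC1D2 had means of 40.2 and 14.9, and NTSR1 was low, at 0.477 and 0.213. Of all 137 pairs of listed genes this close, 93 were listed in the same direction. These neighbours were picked after their values were seen, and no test was made.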

How the data were processed

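RNA from 6 samples of MKN28 cells was sequenced, and groups follow the sample titles. Tools named in the submitters' processing notes are fastp, HISAT and RSEM, with the build GRCh38.p13 and without versions or roles. The authors' deposited table gives an expression signal per gene and sample, unit unnamed, for genes they called changed, and also the authors' fold ratio, log2 fold change, p-value and adjusted p-value, whose test the sources used here do not name. Signals were used as deposited, without counts, so depth and counting error are unknown.

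Values were tested with limma 3.58.1 (trend and robust estimates, statmod 1.5.0, R 4.3.3) on log2(value + 1), group as the only term, for the 292 genes with 1 or more in at least 3 samples. The scale understates changes of low genes. P-values were adjusted over these genes, threshold 0.05. The script was tested on simulated data. Python 3.11.15, numpy 2.4.6, pandas 2.3.3 and scipy 1.17.1 did the rest. The number of genes tested by the authors is the one for which p times that number over adjusted p was whole within 0.01 most often (387 of 422 genes). Positions come from GENCODE 29 on GRCh38 and promoters from RefSeq on GRCh38.p14, which share the primary assembly.

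The genes, lists, motifs and tests were chosen with earlier results of these data known. Shares of a gene list are over all its genes, tested by the authors or not, while the 2.65% beside them is over tested genes. All 10 genes are named, then VPS35, each listed gene of the lists (1 gene was taken off the TGF-beta list, whose counts leave it out, and is not reported here), and the 3 genes nearest in pattern to TGFBI and to MAMDC2 among those whose mean reached 5 in either group. Alternatives were pseudocounts of 0.1 and 5, no filter, a filter of 5, median centring, plain limma, a replicate block and leaving out each sample.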

Additional observations from a re-analysis of the deposited data

How the results depend on the processing

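All 9 tested genes kept their direction and an adjusted p under 0.05 in limma under every alternative that tested them. Alternatives that kept the filter of 1 called 285 to 292 of the 292 listed genes, so this is no trait of the 9 genes. A filter of 5 left 7 of the 9, without COL4A6 and DCN, because fewer genes met it, and LUM got no value there. Over all listed genes it gave 140 calls (62 rose and 78 fell) in place of 292 (132 and 160), since fewer genes were tested. Without a filter 408 passed. Of the other genes tested and named, PLAT alone lost its call, without shVPS35 sample 1 or 2. The LUM difference was -1.01 with a pseudocount of 0.1 and -0.15 with 5, and -0.36 to -0.67 with a sample left out. The groups of 9 or 10 genes did not overlap with a sample left out. With every sample kept this held for 93.4% of all listed genes, and their share with a sample left out was not computed. The DCN to LUM log2 difference was 2.46 with a pseudocount of 0.1, 0.65 with 5 and 1.42 to 1.63 with a sample left out.

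Replicate numbers are shared between the groups, but same-numbered samples did not deviate together (r = -0.06, -0.09 and 0.03 across genes). The values thus show no pairing by number, but they cannot show whether same-numbered samples were prepared together. With the replicate block limma called 291 of the 292 genes and 9 of the 10 genes here. The exact sign-flip p of the DCN to LUM difference was 0.25, the smallest 3 pairs can give. It is no independent evidence either, since both genes were chosen from the authors' list. Not every sample correlated best with its own number, and the largest r was 0.11, for vector sample 1 and shVPS35 sample 2. Values near 1, as for LUM and DCN, are limited by unknown depth.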
